A study of Arabidopsis thaliana with 36 samples.

Results

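The 8 genes described here, of 27655 in the expression table, code for enzymes of the glyoxylate cycle and of gluconeogenesis and were listed by locus identifier under a rule that used no expression value, with earlier results of these data known. They are isocitrate lyase (ICL, AT3G21720), malate synthase (MLS, AT5G03860), the peroxisomal citrate synthases CSY2 (AT3G58750) and CSY3 (AT2G42790), the peroxisomal malate dehydrogenases PMDH1 (AT2G22780) and PMDH2 (AT5G09660), and the phosphoenolpyruvate carboxykinases PCK1 (AT4G37870) and PCK2 (AT5G65690). Their transcripts were measured by RNA-seq of whole Arabidopsis seeds of h3.3ko and of the wild type Columbia (Col). In h3.3ko all 3 genes for histone H3.3, the H3 variant deposited outside replication, are mutated: CRISPR-Cas9 alleles of HTR4 and HTR5 were combined with a T-DNA insertion in HTR8. The h3.3ko seeds were those without mCherry fluorescence among the seeds of h3.3ko plants that carried 1 copy of a rescuing, mCherry-marked pHTR5::HTR5 construct, so their seed coat came from a mother with HTR5. Seeds of both genotypes had been stored dry after harvest and were taken as mature seeds (MS), after 12, 24 or 48 h of cold stratification (S12h, S24h, S48h), and after 12 or 24 h under germination conditions (G12h, G24h). At G24h Col seeds had completed germination and h3.3ko seeds had not, so that the genotypes differed in developmental stage at that time. Each of the 12 groups had 3 biological replicates, 36 libraries in all.

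Arabidopsis stores most of its seed carbon as oil. Peroxisomal beta-oxidation of the fatty acids yields acetyl-CoA, and the glyoxylate cycle condenses it into organic acids without losing carbon as CO2, through ICL and MLS, the enzymes that set the cycle apart from the citric acid cycle. CSY2 and CSY3 make the citrate that carries carbon out of the peroxisome, PMDH1 and PMDH2 reoxidize the NADH that beta-oxidation forms there, and PCK1 turns oxaloacetate into phosphoenolpyruvate, the step that commits the carbon to sugar. The pathway is best known for feeding the seedling between germination and the start of photosynthesis.

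The libraries held 17.0 M to 19.3 M reads on genes, worked out from the deposited values. The 3 H3.3 genes checked the labels. Their summed level was 186 to 327 TPM (a length-scaled share of the transcripts of a library) over the h3.3ko group means and 561 to 3241 TPM over the Col group means. AT5G10980 was lower in h3.3ko at all 6 time points, with 2.02 ± 0.84 TPM in h3.3ko MS and 137 ± 5.7 TPM in Col MS (SD, n = 3 each), whereas AT4G40040 had 298 ± 15 TPM in h3.3ko MS and 290 ± 1.9 TPM in Col MS (SD, n = 3 each) and was lower in h3.3ko at all later times, called at 4 of them. The 9 genes for seed storage proteins took 34.1% of the TPM in h3.3ko MS and 10.2% in Col MS, and 17.2% in h3.3ko G24h and 0.0323% in Col G24h. TPM are shares of a library, and in whole seeds fewer cells of a type and less RNA per cell cannot be told apart.

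In the TAIR10.1 annotation, ICL lies on chromosome 3 (7652487 to 7656053, 5 exons), MLS on chromosome 5 (1032099 to 1034973, 5 exons), CSY2 on chromosome 3 (21724306 to 21728137, 12 exons) and CSY3 on chromosome 2 (17802841 to 17806073, 13 exons). PMDH1 lies on chromosome 2 (9689295 to 9692154, 9 exons), PMDH2 on chromosome 5 (2993411 to 2995784, 8 exons), PCK1 on chromosome 4 (17802690 to 17806705, 13 exons) and PCK2 on chromosome 5 (26266180 to 26269763, 10 exons). PCK2 is on the plus strand and the other 7 are on the minus strand. An antisense RNA gene overlaps CSY3 by 198 bases, and since the sources do not give a strand setting for the time course libraries, its reads cannot be told from those of CSY3. The longest run of identical exon bases was 41 between CSY2 and CSY3, 26 between PMDH1 and PMDH2, 35 between PCK1 and PCK2, and 63 between CSY2 and CSY1, the citrate synthase gene next to it.

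The 250 bases before the annotated start of a gene were read from the RefSeq TAIR10.1 genome to show what lies upstream of the genes whose genotype differences are described next. ICL and PCK1 are shown because they were called together in mature seeds, MLS as the partner of ICL that was not, and PMDH2 because it had the largest differences. All 4 are on the minus strand and are written 5′ to 3′ in the direction of transcription. They span chr3:7656054-7656303 (ICL), chr4:17806706-17806955 (PCK1), chr5:1034974-1035223 (MLS) and chr5:2995785-2996034 (PMDH2). Capitals mark ACGTG, the core of abscisic acid response elements, and TATAAA, the TATA box, on either strand.
ICL: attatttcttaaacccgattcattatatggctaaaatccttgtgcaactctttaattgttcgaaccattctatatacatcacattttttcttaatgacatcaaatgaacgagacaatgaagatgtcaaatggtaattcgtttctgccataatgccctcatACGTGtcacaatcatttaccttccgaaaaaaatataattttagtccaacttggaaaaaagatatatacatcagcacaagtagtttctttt
PCK1: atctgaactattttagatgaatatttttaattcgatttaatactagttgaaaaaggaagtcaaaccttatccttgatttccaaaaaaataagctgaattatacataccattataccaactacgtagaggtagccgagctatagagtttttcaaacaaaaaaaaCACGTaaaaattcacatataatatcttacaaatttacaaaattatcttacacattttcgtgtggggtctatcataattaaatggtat
MLS: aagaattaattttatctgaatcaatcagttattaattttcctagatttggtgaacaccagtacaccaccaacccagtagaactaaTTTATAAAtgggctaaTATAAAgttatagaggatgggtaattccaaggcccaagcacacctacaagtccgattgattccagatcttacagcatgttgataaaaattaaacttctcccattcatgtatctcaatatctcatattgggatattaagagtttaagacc
PMDH2: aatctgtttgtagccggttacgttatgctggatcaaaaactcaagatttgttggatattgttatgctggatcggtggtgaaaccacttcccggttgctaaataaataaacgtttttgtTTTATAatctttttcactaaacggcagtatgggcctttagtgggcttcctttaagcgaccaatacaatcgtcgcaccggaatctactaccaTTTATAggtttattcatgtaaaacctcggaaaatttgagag

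Counted from the annotated start, the ACGTG of ICL stood at -90 to -86 on the coding strand, and that of PCK1 stood at -87 to -83 on the other strand, where it reads CACGT. The MLS window held 3 TATAAA matches, of which 1 on each strand overlap and read TTTATAAA together, and the PMDH2 window held 2, both on the other strand. The first 123 bases of the PMDH2 window belong to the neighbouring gene AT5G09670. Of the 8 members, ICL, PCK1, PCK2 and CSY3 held ACGTG, as did 22.9% of 27443 windows of the same length. CSY3 alone held the G-box CACGTG, at -57 to -52 and at -15 to -10, beside 6.49% of all windows, and its ACGTG matches lie inside these palindromes. TATAAA was found in MLS, CSY2, PMDH1 and PMDH2 and in 47.3% of all windows. The CSY2 match lies within the neighbouring gene AT3G58760, which covers 244 bases of that window. The PMDH2 match at -132 to -127 overlaps AT5G09670. TTGAC, the core of the W-box, was found in ICL, CSY3, PMDH1 and PCK1 and in 44.9% of all windows, and the RY element core CATGCA in none of the members and in 8.43% of all windows. These matches are letters in a window and were not read as binding sites.

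In mature seeds, 3 of the 7 members that could be tested had more transcript in h3.3ko than in Col, and none had less. ICL was 3.34-fold, PCK1 2.59-fold and PMDH2 64.3-fold higher. A gene was called at an adjusted p under 0.05 and a log2 fold change over 1 in size, and of all 19052 tested genes 8.55% were called higher and 10.6% lower in h3.3ko at MS. The other 4 tested members (MLS, CSY2, CSY3 and PMDH1) were not called, with log2 fold changes of 0.51 to 0.73, although in each of them every h3.3ko library lay above every Col library. Every h3.3ko library above every Col library was found in 32.1% of all tested genes at MS, and the opposite, shown by no member, in 36.6%. The median log2 fold change of the 7 members was 0.73, and that of all tested genes was 0.

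ICL, which splits isocitrate into glyoxylate and succinate, had 5102, 4853 and 4351 TPM in h3.3ko MS, against 1376, 1551 and 1352 TPM in Col MS. The groups lay far apart, with the lowest h3.3ko library well above the highest Col library. The log2 fold change was 1.74 ± 0.085 (SE, adjusted p 1.047e-17, limma). PCK1 showed the same order, with 628, 610 and 542 TPM in h3.3ko MS, against 228, 248 and 210 TPM in Col MS (log2 fold change 1.37 ± 0.086, SE, adjusted p 5.813e-15). ICL made up 62.8 ± 0.65% of the summed TPM of the 8 members in h3.3ko MS and 44.6 ± 1.1% in Col MS (SD, n = 3 each).

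PMDH2 was close to undetected in mature Col seeds. Its 3 libraries held 3, 2 and 4 reads in Col MS, at 0.108, 0.0735 and 0.137 TPM, whereas those of h3.3ko MS held 187, 167 and 197 reads, at 7.24, 6.33 and 7.08 TPM. Scaled to library totals, the ratio was 64.3 with a counting interval of 33.6 to 141 (95%, exact binomial, covering counting error only). On log2(TPM + 1), where the added 1 shrinks the changes of low genes, the difference was 2.83 ± 0.096 (SE, adjusted p 1.251e-21). Its paralog PMDH1 had 166 ± 18 TPM in h3.3ko MS and 99.1 ± 4.4 TPM in Col MS (SD, n = 3 each), a log2 fold change of 0.73 that was not called.

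Other values moved with the mature seed difference. The storage protein genes took the shares given above. Without these genes in the scaling, the 3 calls at MS held, with log2 fold changes of 2.19 for ICL, 1.82 for PCK1 and 3.35 for PMDH2, and PMDH1 was called as well at 1.18. Of the 3 endosperm genes listed as markers, EXPA2 and MAN7 were higher and EPR1 lower in h3.3ko MS. Their summed level ran from 1438 to 1983 TPM in h3.3ko MS and from 8373 to 10572 TPM in Col MS, with EXPA2 at 0 in all Col MS libraries. All 3 genes of green tissue were higher in h3.3ko MS, at 235 to 264 TPM summed, against 12.9 to 14.5 TPM in Col MS. The part of these cell types in the values of the members was not tested.

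**Figure D1:**
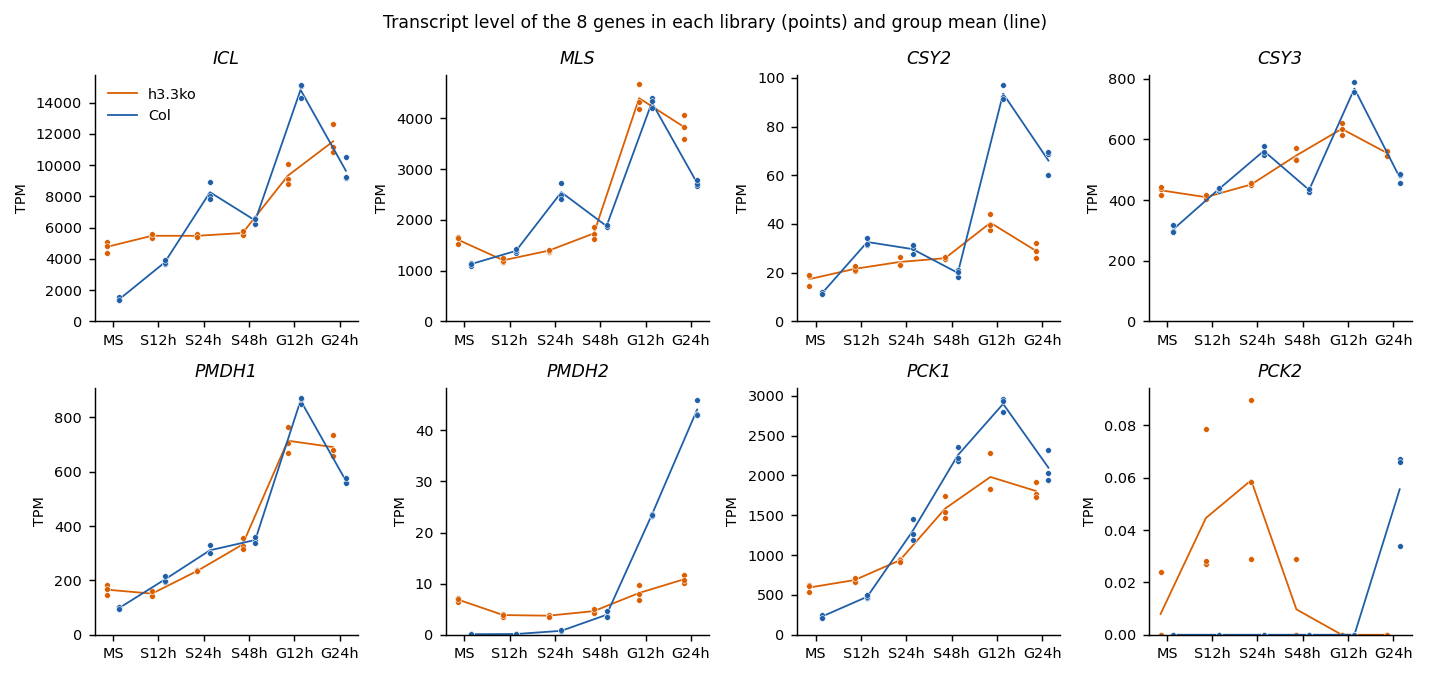
TPM of each of the 8 genes (vertical axes, linear, from 0) at the 6 time points (horizontal axes) in h3.3ko (orange, left) and Col (blue, right); points are libraries, 3 per group, and lines join group means. ICL and PCK1 start higher in h3.3ko MS than in Col MS and run flatter in h3.3ko, PMDH2 is near 0 in Col up to S24h and reaches 44.1 TPM in Col G24h, and PCK2 stays under 0.1 TPM throughout.

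Over the time course, the members spanned a narrower range of TPM in h3.3ko than in Col. The highest group mean of ICL was 2.42 times the lowest within h3.3ko and 10.4 times the lowest within Col. For PCK1 these values were 3.34 within h3.3ko and 12.7 within Col, and for CSY2 2.33 within h3.3ko and 8.10 within Col. For PMDH1 they were 4.72 within h3.3ko and 8.70 within Col, and for CSY3 1.55 within h3.3ko and 2.53 within Col. PMDH2 spanned 2.92-fold within h3.3ko and 414-fold within Col, where the lowest mean rests on 9 reads. MLS was the exception, with 3.65-fold within h3.3ko and 3.82-fold within Col. All 7 had their lowest mean TPM of the 12 groups in Col MS. The highest lay in Col G12h for 5 of them, in h3.3ko G12h for MLS and in Col G24h for PMDH2. With median-of-ratios scaling CSY3 (-0.94, log2) and MLS (-0.32) were lower in Col G24h than in Col MS. On TPM the median of all tested genes rose from MS to G24h by 1.01 in h3.3ko and 1.39 in Col (log2). How many of all tested genes share the narrower range or the lowest mean was not worked out.

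The steps between consecutive time points showed when the transcripts accumulated. In Col, 4 members rose from MS to S12h (ICL, CSY2, PMDH1 and PCK1), beside 35.1% of all tested genes called higher. From S12h to S24h ICL and PCK1 rose (12.9% of all tested genes), from S24h to S48h PMDH2 rose (13.7%), and from S48h to G12h 5 members rose, ICL, MLS, CSY2, PMDH1 and PMDH2 (21.6%). None was called between G12h and G24h in Col (15.5% of all tested genes in either direction), with log2 fold changes of -0.69 to 0.88. In h3.3ko none of the 7 was called in any of the 3 steps up to S48h, where 28.2%, 4.44% and 6.74% of all tested genes were called higher. MLS (log2 fold change 1.34 ± 0.063, SE, adjusted p 1.03e-17) and PMDH1 (1.10 ± 0.066, adjusted p 3.032e-15) rose between S48h and G12h (8.97%), and none was called from G12h to G24h (0.766% in either direction). Several of these calls depended on the scaling. With median-of-ratios factors no member was called from MS to S12h in Col, and ICL not from S12h to S24h (0.90, and 0.99 with voom). With quantile normalization PMDH2 was not called from S24h to S48h in Col (0.98), nor MLS (0.97) and PMDH1 (0.99) from S48h to G12h in h3.3ko. In the step from MS to S12h in Col, PMDH1 was no longer called without the third replicate of Col MS (0.99) or of Col S12h (0.98).

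ICL illustrates both courses. In order from MS to G24h, its means in h3.3ko were 4769, 5481, 5480, 5659, 9327 and 11525 TPM. In Col they were 1426, 3777, 8268, 6458, 14817 and 9644 TPM. The h3.3ko libraries of the stratified seeds thus stayed between 5308 and 5798 TPM, whereas Col crossed them between S12h and S24h. Among the 11 pairs of neighbours in the order of the 12 group means of ICL, the libraries of 4 pairs overlapped, and the same held for PCK1.

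PCK1 rose in Col at S12h (log2 fold change 1.06 ± 0.086, SE) and again at S24h (1.44 ± 0.086) before any germination conditions. The S12h call was lost under 4 alternatives, at -0.058 with median-of-ratios scaling, 0.49 with quantile normalization, 0.999 without storage protein genes in the scaling and 0.71 with voom. In the same order of times, its means in h3.3ko were 593, 687, 935, 1584, 1981 and 1806 TPM, and its means in Col were 229, 478, 1300, 2254, 2899 and 2098 TPM. From S24h on every h3.3ko library lay below every Col library in TPM, with differences of -0.56 to -0.21 on the log2 scale that were not called. The G24h difference depended on the scaling. It was 0.092 with median-of-ratios scaling, 0.058 without storage protein genes in the scaling, -0.0020 with voom and -0.53 with quantile normalization. PCK2 was close to undetected. It had at most 3 reads in any library, 13 reads over the 18 h3.3ko libraries and 5 over the 18 Col libraries, all of these at G24h, and was not tested.

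**Figure D2:**
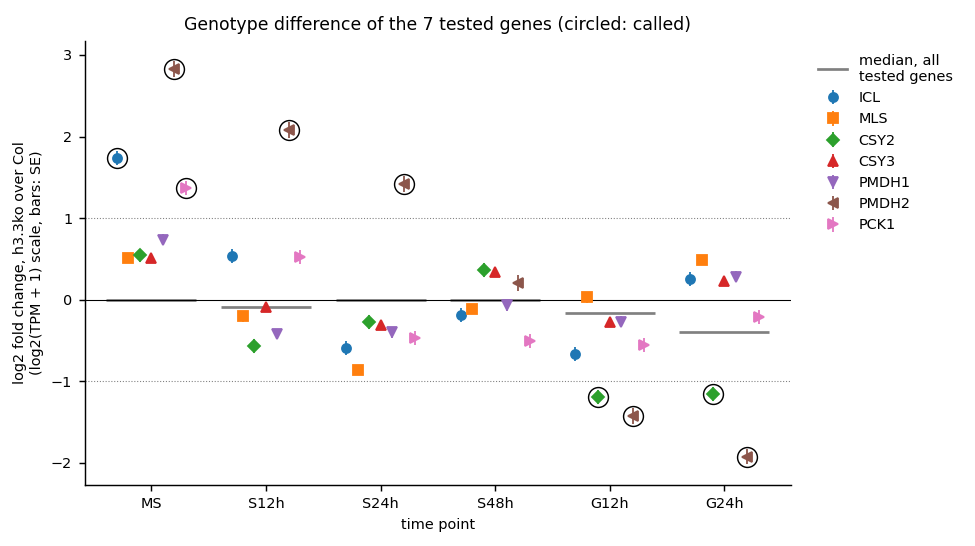
Log2 fold change of h3.3ko over Col (vertical axis, log2(TPM + 1) scale, bars are SE) for the 7 tested genes at the 6 time points (horizontal axis), with 3 libraries per group; circled symbols were called, dotted lines mark a log2 fold change of 1 in size, and grey bars are the median of all tested genes. PMDH2 goes from 2.83 at MS to -1.92 at G24h, and every tested gene lies above 0 at MS.

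After MS, ICL and PCK1 were not called between the genotypes at any time point on the TPM scale. With quantile normalization ICL was called lower at S24h (-1.53), S48h (-1.53), G12h (-1.69) and G24h (-1.54), and PCK1 at G12h (-1.39). PMDH2 was the only member called in h3.3ko S12h (log2 fold change 2.08, higher) and in h3.3ko S24h (1.42, higher). Of all tested genes, 10.9% were called higher and 14.6% lower in S12h seeds, and 16.1% in each direction in S24h seeds. At S48h none of the 7 was called, while 17.8% of all tested genes were called higher and 17.8% lower. At that time the log2 fold changes of the 7 members were -0.51 to 0.37, and voom on the recovered reads called none. Quantile normalization called 1, the ICL value given above. Of the 7 tested members, called ones included, 3 lay above Col in every library at S12h and 4 below, beside 32.3% of all tested genes above and 45.5% below. For S24h seeds these were 1 member above and 6 below (38.9% and 40.4% of all tested genes), for S48h seeds 2 above and 2 below (40.9% and 40.8%), for G12h seeds 0 above and 6 below (31% and 49%), and for G24h seeds 4 above and 3 below (26.9% and 57.1%).

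Under germination conditions the calls were of CSY2 and PMDH2, both lower in h3.3ko. At G12h these were 2 of 7 members, beside 17.6% of all tested genes called lower and 10.2% higher, and at G24h again 2 of 7, beside 29.4% called lower and 9.63% higher. CSY2 had 37.7, 39.7 and 44.2 TPM in h3.3ko G12h, against 92.0, 97.0 and 91.4 TPM in Col G12h. At G24h it had 25.9, 32.3 and 28.9 TPM in h3.3ko and 60.0, 68.8 and 69.4 TPM in Col. The groups did not overlap at either time, and the log2 fold changes were -1.19 ± 0.085 at G12h (SE, adjusted p 7.289e-14) and -1.16 ± 0.085 at G24h (adjusted p 8.551e-14). The G24h call of CSY2 was lost in 4 alternatives, where its log2 fold change was -0.98 to -0.77.

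PMDH2 had 6.88, 7.95 and 9.71 TPM in h3.3ko G12h, against 23.7, 23.3 and 23.4 TPM in Col G12h. At G24h it had 11.7, 10.1 and 10.8 TPM in h3.3ko and 46.0, 43.2 and 42.9 TPM in Col. Col thus had more PMDH2 transcript than h3.3ko in every library at both times, the opposite order to that at MS, S12h and S24h. The log2 fold changes were -1.43 ± 0.096 at G12h (SE, adjusted p 1.57e-14) and -1.92 ± 0.096 at G24h (adjusted p 4.788e-18). At S48h, where the order turned, the libraries overlapped, with 4.74, 4.17 and 4.96 TPM in h3.3ko and 3.70, 3.40 and 4.62 TPM in Col.

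The cycle enzymes with high transcript levels lay above Col at G24h. MLS, which joins glyoxylate and acetyl-CoA into malate, had 3820, 4062 and 3589 TPM in h3.3ko G24h, against 2674, 2711 and 2787 TPM in Col G24h. ICL had 11143, 12602 and 10829 TPM in h3.3ko G24h, against 9162, 9269 and 10500 TPM in Col G24h. Neither was called (log2 fold change 0.49 ± 0.063 for MLS and 0.26 ± 0.085 for ICL, SE). CSY3 and PMDH1 also lay above Col in every G24h library (0.23 for CSY3 and 0.28 for PMDH1, log2). With quantile normalization the directions of ICL and MLS turned: at G24h ICL was called lower (-1.54) and MLS was at -0.52, not called, and at G12h MLS was called lower (-1.70). The endosperm markers summed to 303 to 341 TPM in h3.3ko G24h and 1701 to 2376 TPM in Col G24h, and the green tissue genes to 539 to 684 TPM in h3.3ko G24h and 3616 to 3966 TPM in Col G24h, with none of them at 0 in either group. Of the 3 endosperm markers 2 were called lower and 1 was not called, with log2 fold changes of -5.10 to 0.07. All 3 green tissue genes were called lower, beside 29.4% of all tested genes. The part of these cell types was not tested.

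Summed over the 8 members, transcripts of these genes made up 0.759 ± 0.053% of all TPM in h3.3ko MS and 0.320 ± 0.016% in Col MS (SD, n = 3 each). At S24h the shares were 0.852 ± 0.012% in h3.3ko and 1.30 ± 0.092% in Col, at G12h 1.71 ± 0.12% in h3.3ko and 2.38 ± 0.054% in Col, and at G24h 1.84 ± 0.13% in h3.3ko and 1.56 ± 0.10% in Col (SD, n = 3 each). With the storage protein genes taken out of the total, the shares at MS were 1.15 ± 0.071% in h3.3ko and 0.356 ± 0.017% in Col.

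The change from MS to G24h was then compared between the genotypes. In h3.3ko 4 of 7 members rose (ICL, MLS, PMDH1 and PCK1), with log2 fold changes of 1.25 to 2.05, beside 50.4% of all tested genes. In Col 6 of 7 rose, all but CSY3, with log2 fold changes of 1.27 to 5.35, beside 59.3% of all tested genes. The median of all tested genes was itself 1.01 in h3.3ko and 1.39 in Col. Scaling by median of ratios brought these medians to 0.06 in h3.3ko and 0.26 in Col. Under it 1 member was called in h3.3ko (CSY3, lower) and 3 in Col (ICL, PMDH2 and PCK1, higher). Of all 19052 tested genes it called 3333 higher and 3250 lower in h3.3ko, and 6711 higher and 4679 lower in Col. ICL (-0.14) and MLS (-0.17) in h3.3ko lay below 0 under it.

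The difference between the genotypes in these changes was tested as an interaction. Between MS and G24h, 4 members changed less in h3.3ko than in Col (ICL -1.48 ± 0.12, CSY2 -1.70 ± 0.12, PMDH2 -4.76 ± 0.14 and PCK1 -1.59 ± 0.12, log2 with SE), beside 31.2% of all tested genes called in that direction and 13.4% in the other. Between MS and S48h the interaction was called below 0 for ICL (-1.93 ± 0.12), PMDH2 (-2.63 ± 0.14) and PCK1 (-1.88 ± 0.12). That direction was called for 16.9% of all tested genes and the other for 19.5%. Over this interval PMDH2 fell from 6.88 to 4.63 TPM in h3.3ko and rose from 0.106 to 3.91 TPM in Col. MLS had an interaction of -0.02 ± 0.090 up to G24h, not called, but was called at -1.13 with quantile normalization. The interactions of ICL, PMDH2 and PCK1 were called over both intervals under every alternative run. Since the MS libraries enter each of these tests, they share the MS differences given above.

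Because Col was at a later stage at G24h, h3.3ko G24h was also set against Col G12h. CSY2 (log2 fold change -1.66 ± 0.085, SE) and PMDH2 (-1.04 ± 0.096) were lower in h3.3ko, beside 22.6% of all tested genes called lower and 9.05% higher. The other 5 were not called, with log2 fold changes of -0.68 to -0.17. PMDH2 was no longer called without the second replicate of h3.3ko G24h (-0.998), nor under 4 of the other alternatives. This comparison uses libraries of the G12h and G24h comparisons.

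**Figure D3:**
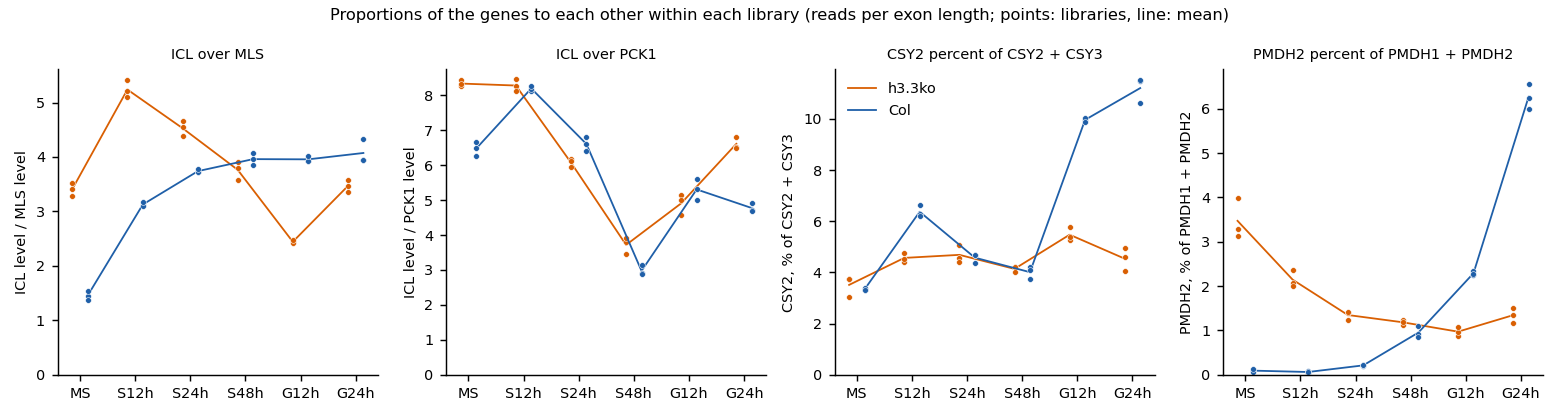
Proportions of the genes within each library, from reads per exon length (vertical axes, linear, from 0), at the 6 time points in h3.3ko (orange, left) and Col (blue, right); points are libraries, 3 per group, and lines join means. ICL over MLS is higher in h3.3ko up to S24h and lower from G12h, and the PMDH2 share of the PMDH pair ends at 1.35% in h3.3ko G24h and 6.27% in Col G24h.

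Proportions between members within a library do not depend on the scaling of the library. They were taken from the recovered reads per exon length, since the deposited TPM had been divided by gene spans that include introns. On this scale (RPM per exon kb), ICL was the highest member in every group, at 9540 ± 607 in h3.3ko G24h and 6895 ± 460 in Col G24h (SD, n = 3 each). ICL over MLS was 3.41 ± 0.12 in h3.3ko MS and 1.46 ± 0.084 in Col MS, 5.24 ± 0.16 in h3.3ko S12h and 3.13 ± 0.036 in Col S12h, and 4.53 ± 0.13 in h3.3ko S24h and 3.74 ± 0.037 in Col S24h (SD, n = 3 each). At S48h the groups overlapped. The order then turned, with 2.44 ± 0.026 in h3.3ko G12h and 3.96 ± 0.051 in Col G12h, and 3.47 ± 0.11 in h3.3ko G24h and 4.07 ± 0.23 in Col G24h. The libraries of the genotypes thus did not overlap in this ratio at 5 of 6 time points.

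ICL over PCK1 was 8.34 ± 0.087 in h3.3ko MS and 6.47 ± 0.20 in Col MS, and at S12h the libraries overlapped at 8.28 ± 0.17 in h3.3ko and 8.19 ± 0.067 in Col. At S24h it was lower in h3.3ko in every library, at 6.07 ± 0.11 in h3.3ko and 6.61 ± 0.21 in Col, and at G12h the libraries overlapped. At S48h it was 3.72 ± 0.24 in h3.3ko and 2.97 ± 0.15 in Col, its lowest in both, and at G24h 6.61 ± 0.17 in h3.3ko and 4.77 ± 0.11 in Col (SD, n = 3 each).

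Of the citrate synthase pair, CSY3 was the main transcript throughout. CSY2 made up 3.51 ± 0.40% of the pair in h3.3ko MS and 3.34 ± 0.040% in Col MS, and 4.54 ± 0.46% in h3.3ko G24h and 11.2 ± 0.49% in Col G24h (SD, n = 3 each). Of the malate dehydrogenase pair, PMDH2 made up 3.47 ± 0.46% in h3.3ko MS and 0.0933 ± 0.032% in Col MS, and 1.35 ± 0.17% in h3.3ko G24h and 6.27 ± 0.28% in Col G24h. In 36 such comparisons the smallest two-sided exact permutation p was 0.1, the lowest that 3 libraries against 3 allow, and 0.138 after Benjamini-Hochberg adjustment, so none could pass a threshold of 0.05.

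The members were not equally alike in their course over the 12 group means. On log2(TPM + 1), Pearson's r was 0.94 for MLS and PMDH1, 0.91 for ICL and PCK1, 0.91 for PMDH1 and PCK1 and 0.90 for ICL and PMDH1. PMDH2 was least like the rest of the tested members, with 0.55 for CSY3 and 0.75 for ICL. These are descriptions over 12 groups whose TPM share library scaling, as are the next ones. Among 16252 other genes, the genes most like ICL were AT1G27530 (r 0.96), THFS, the 10-formyltetrahydrofolate synthetase of folate metabolism (0.95), SCL30, an SR-like splicing factor (0.94), AT5G56260 and AT5G14430 (both 0.94). Those most like PCK1 were AT3G47836 (0.99), HIT3 (0.99), the cyclophilin gene ROC3 (0.99), AT1G75340 (0.99) and the homeobox gene HB33 (0.99).

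The steps before and after the members were covered by a list of 44 other genes, of which 40 were tested: aconitases, fumarases, other citrate synthases and malate dehydrogenases, peroxisomal and mitochondrial carriers, acetate activation, and the enzymes from enolase to sucrose phosphate synthase. In h3.3ko MS 11 were called higher and 1 lower than in Col MS, beside 8.55% and 10.6% of all tested genes, and their median log2 fold change was 0.35, beside 0 over all tested genes. The calls were 2 higher and 10 lower in S12h seeds (10.9% and 14.6% of all tested genes) and 3 higher and 18 lower in S24h seeds (16.1% each). In S48h seeds they were 7 higher and 9 lower (17.8% each), and in G12h seeds 0 higher and 5 lower (10.2% and 17.6%). In h3.3ko G24h 0 were called higher and 21 lower (9.63% and 29.4%), at a median of -1.02, beside -0.39 over all tested genes. At the same time the median of the 7 members was 0.23.

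Among these genes, FBA8, a cytosolic fructose-bisphosphate aldolase, had 37.8 TPM in h3.3ko MS and 1.34 TPM in Col MS (log2 fold change 4.05), and c-NAD-MDH2, a cytosolic malate dehydrogenase, had 7.73 TPM in h3.3ko MS and 1.02 TPM in Col MS (2.11). AAE7, the peroxisomal enzyme that feeds acetate into the cycle, was lower in h3.3ko MS, at 23.3 TPM against 68.9 TPM in Col MS (-1.52), and higher in h3.3ko S48h, at 10.3 TPM against 0.909 TPM in Col S48h (2.57). SPS2F, a sucrose phosphate synthase, had 6.47 TPM in h3.3ko S48h and 0.106 TPM in Col S48h (2.75). The glycolytic enzyme genes iPGAM1 and GAPC1 were lower in h3.3ko S48h, with log2 fold changes of -2.41 and -2.35. At G24h the largest differences were those of iPGAM1, a phosphoglycerate mutase, with 2.85 TPM in h3.3ko and 229 TPM in Col (-5.91), and of UGP1, a UDP-glucose pyrophosphorylase, with 12.4 TPM in h3.3ko and 176 TPM in Col (-3.71). Means are over 3 libraries per group.

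**Figure D4:**
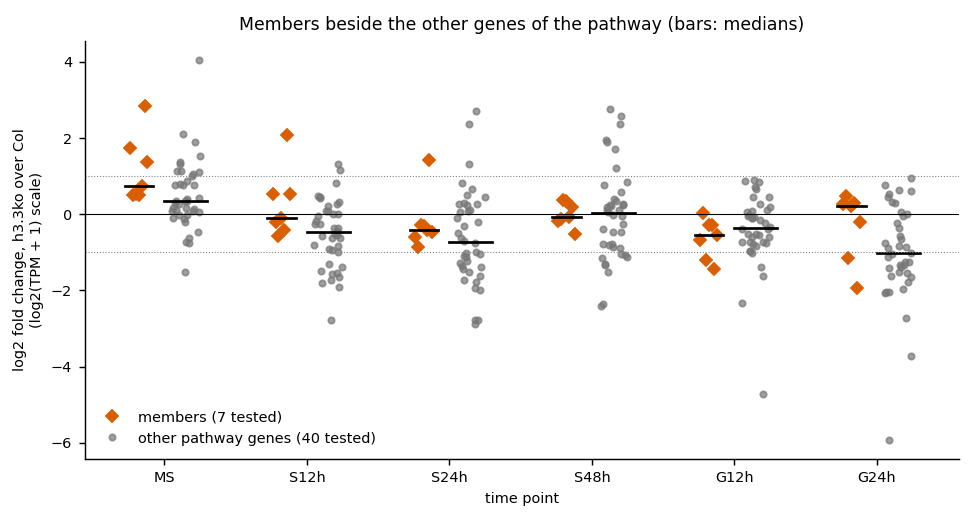
Log2 fold change of h3.3ko over Col (vertical axis, log2(TPM + 1) scale) at the 6 time points (horizontal axis) for the 7 tested members (orange diamonds, left) and the 40 tested other genes of the pathway (grey circles, right); each symbol is 1 gene, horizontal bars are medians, and dotted lines mark a log2 fold change of 1 in size. At G24h the median of the other genes is -1.02 and that of the members is 0.23.

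The same peroxisomes later take over photorespiration. Of 5 genes for leaf peroxisomal enzymes of that pathway, 1 was called higher and 1 lower in h3.3ko MS (8.55% and 10.6% of all tested genes). Called lower were 2 in h3.3ko S12h (14.6% of all tested genes) and S24h (16.1%), and 1 in h3.3ko S48h (17.8%), G12h (17.6%) and G24h (29.4%). None was called higher after MS, where 9.63% to 17.8% of all tested genes were, depending on the time.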

How the data were processed

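Per the processing notes of the submitters, reads were trimmed with fastp 0.20.1, mapped to TAIR10 with HISAT2 2.1.10 and counted per gene with HTSeq 0.11.2 by the authors, who deposited 1 table of TPM for 36 libraries. The annotated span of each of 27433 genes, introns included, was used to recover reads. It turned 99.97 to 99.99% of the low and middle values of a library into whole reads (within 0.02 of a read). The largest values, among them those of ICL, MLS, CSY3, PMDH1 and PCK1, were rounded without this check. The 27428 genes that passed in every library gave the depths. Genes with at least 1 TPM in at least 3 libraries were tested (19052). With limma 3.58.1 (R 4.3.3), log2(TPM + 1) was modelled by 12 group means, the prior variance following mean expression. P-values were adjusted by Benjamini-Hochberg over all tested genes, and the script was checked on simulated data. A gene was called at an adjusted p under 0.05 and a log2 fold change over 1 in size, the thresholds of the study. All 8 members are named, and of the other pathway genes the 2 largest called changes in each direction at MS, S48h and G24h. The deviations of same-numbered h3.3ko and Col replicates from their group means correlated weakly at S12h (r 0.249, 0.285 and 0.188). At the other times r ran from -0.170 to 0.186. Differently numbered libraries were not compared, so these values cannot show whether the replicates were paired. Alternatives changed the pseudocount, filter, scaling, test or replicate block, or left out 1 library. The members and lists were chosen with earlier results of these data known.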

Additional observations from a re-analysis of the deposited data

Results flagged for a closer look

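The changes of 4 members over time differed between h3.3ko and Col by the interaction test (limma, log2 with SE, change in h3.3ko minus change in Col). Between MS and S48h these were ICL (-1.93 ± 0.12, adjusted p 3.022e-15), PMDH2 (-2.63 ± 0.14, adjusted p 2.788e-17) and PCK1 (-1.88 ± 0.12, adjusted p 8.389e-15). Between MS and G24h these were ICL (-1.48 ± 0.12, adjusted p 1.238e-12), CSY2 (-1.70 ± 0.12, adjusted p 4.804e-14), PMDH2 (-4.76 ± 0.14, adjusted p 5.759e-24) and PCK1 (-1.59 ± 0.12, adjusted p 3.816e-13). Of all tested genes, 16.9% were called lower and 19.5% higher by this test from MS to S48h, and 31.2% lower and 13.4% higher from MS to G24h. Since the MS libraries enter each of these tests, they share the MS differences. Groups of 3 libraries were too small for a test of single libraries.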

How the results depend on the processing

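Leaving out each library in turn kept 3273 of 3276 results of a member and lost 3 calls. Steps between consecutive times that were not called with the main settings are not among these results or the next ones. The number of members called was 1 to 2 for h3.3ko G24h against Col G12h (2 with all libraries) and stayed as with all libraries in the other 10 main comparisons. Of 728 results under the other alternatives, 679 kept their call, 31 lost and 10 gained a call, and 8 reversed. A result was reversed if its sign changed and it was called in either setting. Sign changes without a call in either setting count as kept, and were 38 of the 4004 results of both kinds. Members called differed most with quantile normalization (2 at S24h, 1 at S48h, 5 at G12h, 4 for h3.3ko G24h against Col G12h, and 5 for the interaction from MS to G24h; the gains were ICL, MLS and PCK1) and median-of-ratios scaling (1 at G24h, 1 for MS to G24h in h3.3ko, 3 in Col, and 1 for h3.3ko G24h against Col G12h). Storage protein genes left out of the scaling gave 1, 2 and 1, and voom on recovered reads gave 1, 2 and 1, for G24h, MS to G24h in h3.3ko, and h3.3ko G24h against Col G12h; voom gave 5 for MS to G24h in Col. Reversed were MLS at G12h (-1.70) and ICL at G24h (-1.54) with quantile normalization, and with median-of-ratios scaling ICL (-0.14), MLS (-0.17) and CSY3 (-1.05) for MS to G24h in h3.3ko, MLS (-0.32) for the same interval in Col, and PMDH1 (-0.088) and PCK1 (-0.058) for MS to S12h in Col. Median-of-ratios scaling moved the median of all genes; the cause of the other changes was not tested. A replicate block changed no count of members called (3 at MS, 2 at G24h). Depth limits PMDH2 in Col MS and Col S12h, with at most 4 reads per library, and PCK2 throughout, with at most 3.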
